A study of Mus musculus with 4 samples.

Results

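The clustered histone genes of mouse were followed as polyadenylated RNA in primary embryo fibroblasts of 4 genotypes. They were chosen by name alone, as every symbol that starts with Hist1h, Hist2h, Hist3h or Hist4h, which gave 68 of the 23235 symbols in the deposited tables. By histone type they were 6 genes of the linker histone H1, 18 of H2A, 19 of H2B, 12 of H3 and 13 of H4. By cluster 54 belonged to Hist1, 10 to Hist2, 3 to Hist3 and 1 to Hist4.

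All 4 cultures were of the C57BL/6 strain and each gave 1 library of oligo(dT)-selected RNA. The genotypes on the labels were wild type, Gadd45-/- (named Gadd45a-/- in the design text), G3 Terc-/- and G3 Gadd45-/-Terc-/-, called dKO, where G3 names generation 3. No label says how many embryos a culture came from. Values are FPKM, fragment counts scaled by transcript length and by the mapped fragments of the library, and differences are of log2(FPKM + 1) with 1 FPKM as pseudocount. A gene is called higher or lower at a difference of at least 1 or at most -1, that is at a 2-fold difference of FPKM + 1. With 1 library per genotype no difference has a replicate check and no test was possible.

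Core histones H2A, H2B, H3 and H4 form the nucleosome and H1 binds the linker DNA between nucleosomes. The clustered genes supply most of this protein during S phase. Their usual messenger RNA has no poly(A) tail: it ends just after a short hairpin, the stem-loop, which is bound by the protein SLBP and cut with the help of the U7 small nuclear ribonucleoprotein. A minor share of transcripts runs past the hairpin to a downstream poly(A) site, and such forms are known from cells that have left the cycle or differentiated. Selection on oligo(dT) keeps mainly these forms, so the values below do not give the amount of the tail-less S-phase messenger.

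Levels of Gadd45a did not follow the labels, with 22.9, 33.9, 31.4 and 45.1 FPKM in wild type, Gadd45-/-, G3 Terc-/- and dKO by label. Unless stated otherwise, 4 values in a row follow this order. Terc was listed at 0.530, 0.259, 0 and 0 FPKM. The library labelled Gadd45-/- also stood apart in sex-linked genes, with Ddx3y at 16.4 FPKM against 0.0228 or less elsewhere, so sex differs together with that label. All 8 fibroblast markers were at 1 FPKM or more in every library, and their summed level was 11581, 12202, 6685 and 11522 FPKM in the order above. Each marker of endothelium and red cells stayed under 1 FPKM in every library. Summed levels were 3.01 to 7.11 FPKM for leukocyte markers, 1.67 to 8.69 for epithelium, 26.3 to 77.1 for neurons, 12.1 to 26.0 for muscle and 0.0272 to 6.44 for hepatocytes. Wild type was highest for epithelium (2.66 or less elsewhere), muscle and hepatocytes (0.331 or less elsewhere). The G3 Terc-/- label was highest for leukocytes and the dKO label for neurons. For neurons and for muscle 1 of 3 markers reached 1 FPKM. The part of these marker levels in the histone values was not tested. Low values fell on whole multiples of what 1 fragment is worth, which gave depths of about 19.4, 19.9, 19.6 and 19.8 M fragments (M for mega).

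The hairpin was present in the annotated transcripts of most members, and it is shown for the members with the highest values because it marks where the usual tail-less messenger ends; whether the counted fragments came from transcripts that run past it was not tested. A run of 16 bases was searched after the stop codon: a 6-base stem that starts with GG, a 4-base loop with T at its 1st and 3rd base, and the reverse complement of the stem. It was found in 45 of 67 members with a coding transcript in GENCODE M21, where only the longest coding transcript of each member was used. Among other coding transcripts with at least 100 bases after the stop codon, 12 of 40175 (0.0299%) held such a run in the first 100 bases. Capitals mark the 6 paired bases on either side of the loop.
Hist1h1c: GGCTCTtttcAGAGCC
Hist3h2a: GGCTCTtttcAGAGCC
Hist1h2ab: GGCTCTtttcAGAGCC
Hist1h4h: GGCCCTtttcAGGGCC
Hist1h4m: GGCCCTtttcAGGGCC
Hist1h4i: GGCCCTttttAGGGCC
Hist1h4a: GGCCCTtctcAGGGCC
The 25 members with the first of these runs were genes of H1, H2A, H2B or H3, and the 7 members with the run printed for Hist1h4h were all H4 genes. The stem thus differed between H4 and the other types, and 2 H4 members had a further stem, in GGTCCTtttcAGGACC. The loop differed among H4 members and among the other types, where 6 members of H1, H2B or H3 had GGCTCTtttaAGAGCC. Hist1h2bc, an H2B gene with high values, has no such run in its longest annotated coding transcript, which is spliced from 2 exons.

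Annotated transcripts differed in how far they went past the hairpin. The transcript of Hist1h1c went on for 840 nt and ended with AATAAA, the usual poly(A) signal, in its last 50 nt, and that of Hist3h2a went on for 1643 nt with the same signal. Hist1h4i went on for 330 nt and Hist1h4h for 46 nt, both with the variant signal ATTAAA near the end. Hist1h4a went on for 108 nt with AATAAA, whereas Hist1h2ab and Hist1h4m ended 11 and 3 nt past the hairpin with neither signal. Of 23 members annotated for 100 nt or more beyond the hairpin, 12 reached 1 FPKM in some library and the median of their highest values was 2.45 FPKM. Of 22 members annotated for less than that, 5 reached 1 FPKM and the median was 0.370 FPKM. The 22 members with no hairpin in the annotated transcript were close to these, with 5 at 1 FPKM and a median of 0.280 FPKM. Of these, 15 had no more than 2 annotated bases after the stop codon, so no hairpin could be found in them. At 5 FPKM the groups differed little in number, with 4, 3 and 1 members. Transcript models and measured levels are not independent, since models are built from RNA that was once observed, and the authors' own models are not given in the sources used here. Levels were not counted over all of these extensions. The worth of 1 fragment gives the effective length of counting, the model length less about 1 fragment length. It was 111 nt for Hist1h4d, annotated for 770 nt past the hairpin, 146 nt for Hist2h4 (1257 nt) and 208 nt for Hist1h3d (752 nt). For Hist1h1c and Hist3h2a it was 1366 and 1797 nt. The groups thus go by annotated length, not by the length counted.

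**Figure D1:**
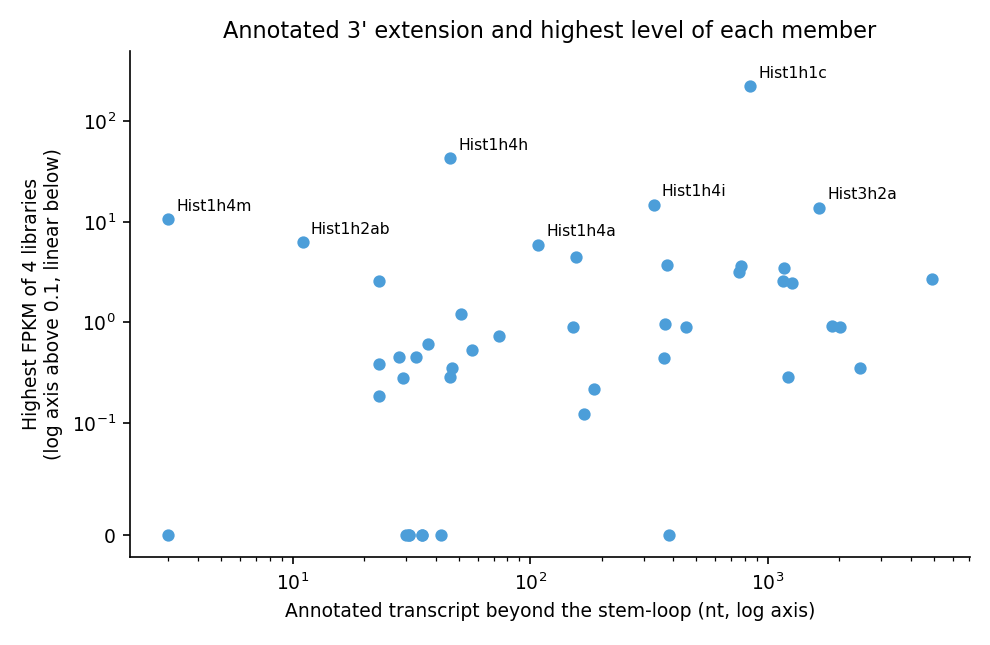
Each point is a member with a hairpin in its annotated transcript, placed by the annotated length beyond the hairpin (nt, log axis) and its highest FPKM of 4 libraries (log axis above 0.1, linear below). Members that reached 5 FPKM are named, and they lie at extensions from 3 nt (Hist1h4m) to 1643 nt (Hist3h2a). Extensions are those of GENCODE M21, and levels were not counted over all of them.

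Polyadenylated histone RNA was concentrated in a few members. Of the 68, 8 reached 5 FPKM in at least 1 library, 14 more reached 1 FPKM, 30 stayed between 0 and 1 FPKM and 16 were listed at 0 in all 4 libraries. Members at 1 FPKM or more numbered 9 in wild type, 9 in the library labelled Gadd45-/-, 20 in the library labelled G3 Terc-/- and 19 in the library labelled G3 dKO. Hist1h1c and Hist1h2bc alone made up 72.1%, 75.2%, 72.8% and 69.2% of the summed FPKM of all members in these libraries. The sum itself was 128, 135, 486 and 287 FPKM. In bulk RNA a change in the share of cells with such transcripts and a change in their amount per cell cannot be told apart.

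Sums by type separated the H1 and H4 genes from the H2A genes. The H1 sum was 45.9, 54.0, 232 and 103 FPKM, and the H4 sum was 12.5, 11.0, 86.7 and 39.2 FPKM. Both were highest in the library labelled G3 Terc-/- by a wide margin. The H2B sum was 50.9, 52.6, 139 and 109 FPKM, and the H3 sum was 3.58, 4.56, 11.5 and 12.2 FPKM. The H2A sum was 15.1, 12.9, 17.1 and 24.3 FPKM, and so was highest in the library labelled G3 dKO. Against wild type the library labelled G3 Terc-/- had 6.92 times the H4 signal (95% counting interval 5.23 to 9.17), 5.05 times the H1 signal (4.74 to 5.37), 3.22 times the H3 signal (2.11 to 4.91) and 2.74 times the H2B signal (2.47 to 3.03). For H2A the ratio was 1.13 (0.956 to 1.34). These intervals cover the counting of fragments only, not the spread between cultures, and fragments of amplified libraries are not independent molecules. Without Hist1h4h the H4 ratio was 4.32, and no type's ratio to wild type turned without its leading member.

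**Figure D2:**
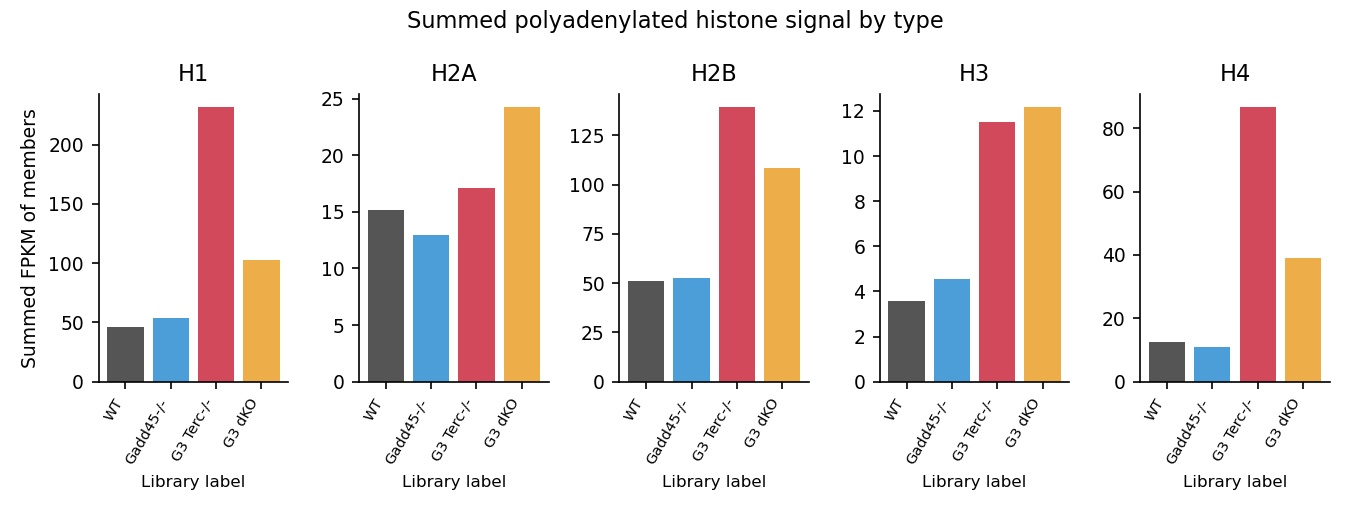
Bars give the summed FPKM of all members of a histone type in each of the 4 libraries, 1 library per genotype, each panel with its own axis from 0. The library labelled G3 Terc-/- is highest for H1, H2B and H4, and the library labelled G3 dKO for H2A and, by little, for H3.

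The comparison of the library labelled G3 Terc-/- with wild type asks what loss of the telomerase RNA gene Terc goes with after generations of breeding. Of the 68 members 14 were called higher (20.6%) and none lower, where 5.71% of all symbols were called higher and 3.52% lower. The median difference over all 68 members was 0.21, against 0 over all symbols. By type 4 of 6 H1 genes, 7 of 13 H4 genes, 2 of 19 H2B genes, 1 of 12 H3 genes and none of 18 H2A genes were called higher. The sample of members is not a set of independent genes, since many are near-identical copies. With a pseudocount of 0.1 FPKM, 30 members were called higher and 3 lower, as the size rule then reaches members of a few fragments.

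**Figure D3:**
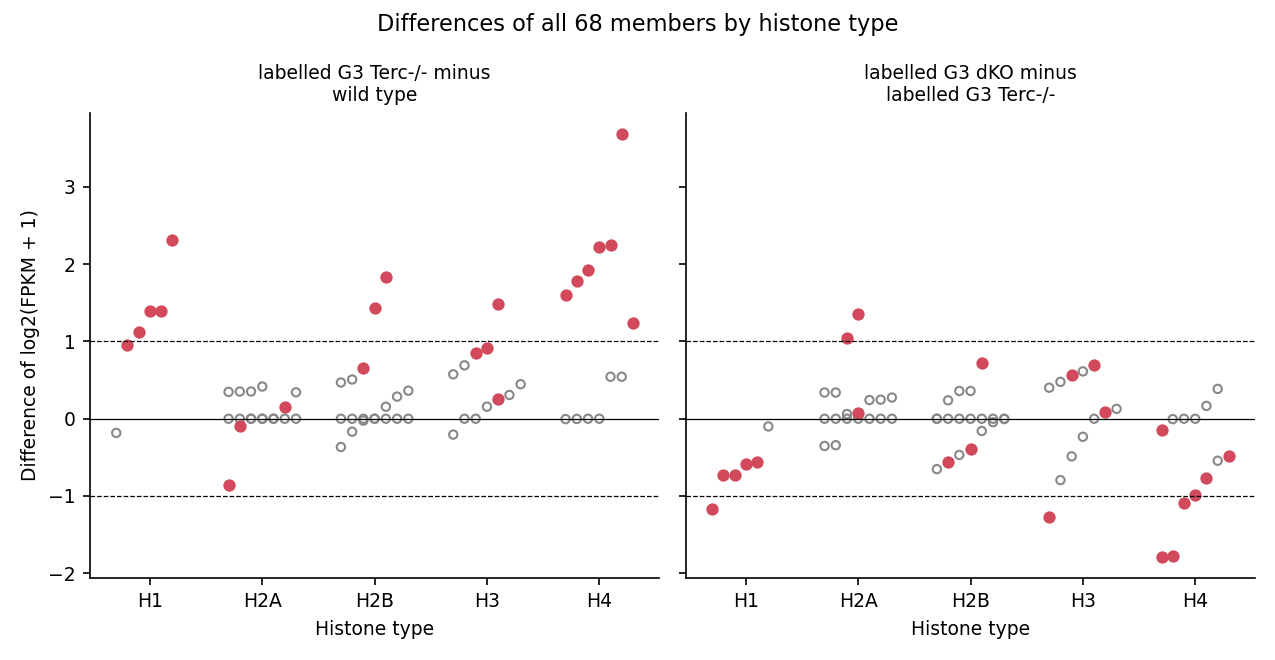
Each point is 1 of the 68 members, placed by histone type and by its difference of log2(FPKM + 1) between the libraries named above each panel. Filled points are members that reached 1 FPKM in some library, open points the rest, and dashed lines mark the size rule of 1 and -1. Of 6 H1 members 5 lie above 0 for the library labelled G3 Terc-/- against wild type and 6 lie below 0 for the dKO label against it, and of 13 H4 members 9 lie above and 9 below. Both panels use the library labelled G3 Terc-/-, with opposite signs. A value particular to that library therefore shows in both, and the panels are not separate observations.

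Among the linker histones Hist1h1c, which encodes H1.2, had the highest level of all members. Its 4 values were 44.1, 52.1, 222 and 98.6 FPKM. Both G3 libraries lay above both others, and the library labelled G3 Terc-/- lay far above all. These values stand for 1169, 1413, 5955 and 2669 fragments, the smallest whole numbers that give the 4 listed values. The ratio of the library labelled G3 Terc-/- to wild type was 5.04 (95% counting interval 4.73 to 5.37), and the difference was 2.31. Hist1h1b, Hist1h1d and Hist1h1e, which encode further H1 subtypes of somatic cells, were called higher as well at far lower levels. Their wild-type values lay between 0.377 and 0.657 FPKM, and those under the G3 Terc-/- label between 2.60 and 2.70 FPKM. Hist1h1d held 11, 13, 74 and 42 fragments in the 4 libraries. Hist1h1a, at 0.0943, 0.461, 1.12 and 0.277 FPKM, was not called, with a difference of 0.95. Hist1h1t, the testis-specific H1, stayed under 1 FPKM.

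Hist1h4h led the H4 genes and showed the largest difference of any member from wild type to the G3 Terc-/- label. Its values were 2.43, 1.10, 43.1 and 11.9 FPKM, from 13, 6, 233 and 65 fragments. The library labelled G3 Terc-/- was thus 17.7-fold above wild type (95% counting interval 10.2 to 33.8), and its difference was 3.68. Hist1h4i stood at 5.69, 6.91, 14.8 and 10.2 FPKM, from 37, 46, 97 and 68 fragments. Its ratio to wild type was 2.59 (1.76 to 3.90) in the library labelled G3 Terc-/-, a smaller difference on a higher starting level than that of Hist1h4h. Histone H4, made from all of these genes, pairs with H3 at the centre of the nucleosome.

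Hist1h4a stood at 0.462, 0.904, 5.95 and 2.26 FPKM from 1, 2, 13 and 5 fragments, so its low end rests on single fragments. Hist1h4k followed it closely at 0.462, 0.904, 4.58 and 2.26 FPKM. Hist1h4d was listed at 0, 0, 3.66 and 1.36 FPKM, and so only in the G3 libraries above 0. Hist2h4 was listed at 0, 0.691, 2.45 and 0 FPKM. Over all 13 H4 members, 9 lay above wild type in the library labelled G3 Terc-/-, 2 lay below (Hist1h4c and Hist4h4), and 2 were listed at 0 in both.

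Hist1h4m differed from Hist1h4h between the G3 libraries. Its values were 2.80, 0.249, 10.6 and 9.47 FPKM, from 11, 1, 42 and 38 fragments. The G3 libraries lay close together with a ratio of 0.895 of the dKO label to the other (95% counting interval 0.561 to 1.42). For Hist1h4h this ratio was 0.276 (0.206 to 0.365). For Hist1h4i it was 0.693 (0.501 to 0.955), an interval that overlaps that of Hist1h4m. The coding sequence of Hist1h4m is identical to that of Hist1h4n, which was listed at 0 in every library, so the division of fragments between these copies is uncertain.

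Hist1h2bc was the one H2B gene with a high level, at 48.2, 49.5, 132 and 100.3 FPKM. Those values stand for 493, 518, 1362 and 1049 fragments. The libraries without the G3 label were nearly level, and the ratio of the library labelled G3 Terc-/- to wild type was 2.73 (95% counting interval 2.46 to 3.04). The other H2B gene called higher there was Hist1h2bj, listed at 0 in wild type, with 1.13, 2.57 and 1.41 FPKM in the other libraries. Its coding sequence shares 99.0% of its bases with that of Hist1h2bc, its nearest copy.

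Among H2A genes Hist3h2a had the highest level and varied least of the 8 leading members. Its values were 11.7, 8.91, 13.1 and 13.8 FPKM, from 407, 318, 460 and 493 fragments. The ratio of the library labelled G3 Terc-/- to wild type was 1.12 (95% counting interval 0.977 to 1.28). Hist1h2ab stood at 2.03, 1.49, 1.85 and 6.31 FPKM from 12, 9, 11 and 38 fragments, so that the library labelled G3 dKO stood alone and the other libraries were level. Hist1h2ai stood at 0.812, 0.529, 0 and 1.06 FPKM, at most 4 fragments in a library.

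**Figure D4:**
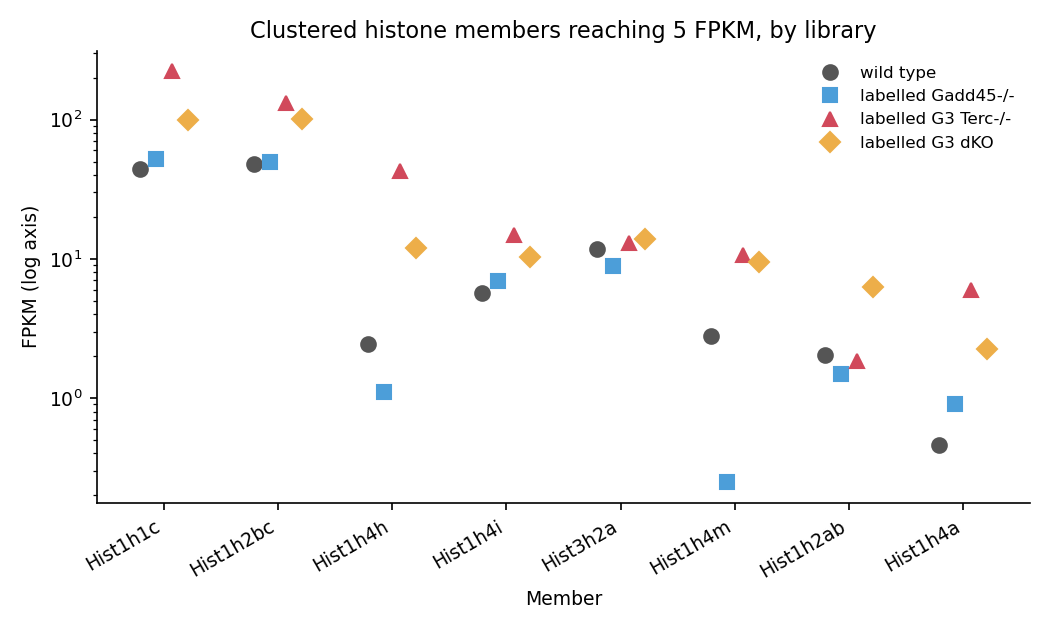
Points give the FPKM (log axis) of the 8 members that reached 5 FPKM, by library, with 1 library per genotype and no error bars. The library labelled G3 Terc-/- is highest for Hist1h1c, Hist1h2bc, Hist1h4h, Hist1h4i, Hist1h4m and Hist1h4a, and the library labelled G3 dKO for Hist3h2a and Hist1h2ab.

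H3 genes stayed low. Hist2h3c1 stood at 1.23, 1.48, 3.22 and 3.49 FPKM, from 39, 48, 103 and 113 fragments, and Hist2h3c2 at 0.628, 0.552, 1.93 and 3.75 FPKM, from 10, 9, 31 and 61 fragments. Both were higher in the G3 libraries, and Hist2h3c2 was highest in the library labelled G3 dKO. Hist1h3d, the H3 gene called higher in the library labelled G3 Terc-/-, stood at 0.495, 0.725, 3.18 and 0.726 FPKM. It thus stood apart in that library only, on 13 fragments. Hist1h3b reached 1.21 FPKM in the library labelled G3 dKO, from 0.247 to 0.490 FPKM elsewhere.

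Between the G3 libraries, which asks what the Gadd45 label goes with in G3 Terc-/- cells, 5 members were lower and 2 higher in the library labelled G3 dKO. Of all symbols 2.94% were called lower and 1.12% higher, so the members' 7.35% lower and 2.94% higher rest on few genes each. The lower members were Hist1h1c, Hist1h3d, Hist1h4a, Hist1h4h and Hist2h4, and the higher ones were Hist1h2ab and Hist1h2ai. The library labelled G3 Terc-/- also enters the comparison with wild type, with the opposite sign, so these comparisons are not separate observations. Hist1h1c was 2.26-fold above the dKO label in the library labelled G3 Terc-/- (95% counting interval 2.16 to 2.36), and Hist1h4h 3.63-fold (2.74 to 4.85). Hist1h2ab lay in the opposite direction, with 3.42 times the signal under the dKO label (1.71 to 7.41). As sums, the dKO label held 0.445 of the H1 signal (0.425 to 0.465) and 0.452 of the H4 signal (0.376 to 0.545) of the library labelled G3 Terc-/-, against 0.780 for H2B (0.720 to 0.845), 1.06 for H3 (0.782 to 1.43) and 1.41 for H2A (1.20 to 1.67). The H2B direction rests on Hist1h2bc: without it the H2B ratio was 1.10. Without Hist3h2a the H2A ratio was 2.55. Much of the H2A rise lay in Hist1h2ab, which went from 1.85 to 6.31 FPKM while the H2A sum went from 17.1 to 24.3 FPKM. Hist1h2ab held 11 and 38 fragments in these libraries, and all H2A members together 517 and 590.

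Outside G3 the Gadd45 label went with little. In the library labelled Gadd45-/- 1 member was higher than in wild type, Hist1h2bj, and 1 was lower, Hist1h4m, beside 0.413% and 0.362% of all symbols. Both rest on few fragments, 4 against 0 for Hist1h2bj and 1 against 11 for Hist1h4m. Hist1h1c stood 1.18-fold higher (95% counting interval 1.09 to 1.28) and Hist3h2a 1.31-fold lower (1.13 to 1.52), both below the size rule.

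In the library labelled G3 dKO 7 members were higher than in the library labelled Gadd45-/- and none lower, beside 1.54% and 1.51% of all symbols. They were Hist1h2ab, Hist1h2bc, Hist1h2bg, Hist1h4d, Hist1h4h, Hist1h4m and Hist2h3c2. Hist1h4h was 10.8-fold higher (95% counting interval 4.72 to 30.6), Hist2h3c2 6.79-fold (3.35 to 15.5) and Hist1h2bc 2.03-fold (1.82 to 2.26). Hist1h2bg, an H2B gene, stood at 1.12, 1.10, 2.34 and 4.51 FPKM. This comparison shares its libraries with those above, so its values are not a second observation of the same difference. Of the 22 members that reached 1 FPKM, 18 were higher in both G3 libraries than in both others, and the exceptions were Hist1h1a, Hist1h2ab, Hist1h2ai and Hist2h4. Most of these 22 reached 1 FPKM only through the G3 libraries, so the count describes them and does not test them.

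Members that were highest in the library labelled G3 dKO numbered 7 of the 22, namely Hist1h2ab, Hist1h2ai, Hist3h2a, Hist1h2bg, Hist1h3b, Hist2h3c1 and Hist2h3c2. In RefSeq's order of genes on chromosome 13, Hist1h2ab lies next to Hist1h3b, and Hist1h2bg lies next to Hist1h2ae, an H2A gene with 2, 4, 6 and 9 fragments. The Hist2 pair Hist2h3c1 and Hist2h3c2 flanks the copies Hist2h2aa1 and Hist2h2aa2, both listed at 0 in all libraries. On its other side Hist2h3c1 has Hist2h4, at 2.45 FPKM under the G3 Terc-/- label and 0 under the dKO label. Hist2h3c2 has Hist2h2be, level at 29, 29, 28 and 26 fragments. The other neighbour of Hist1h2ab, Hist1h2bb, had 1 fragment, under the G3 Terc-/- label, and that of Hist1h2bg, Hist1h2bf, had 1 under the dKO label. Whether neighbours vary together was not tested.

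Near-identical copies limit what single members can show. Of 57 members with another member of the same type and coding length, 46 shared at least 95% of their coding bases with it and 8 had an identical copy. The median identity to the nearest copy was 98.98% for H2A, 98.4% for H2B, 98.8% for H3 and 96.8% for H4. No H1 gene had a member of equal coding length, so the identity between H1 genes was not measured. For Hist1h4h and Hist1h4i the nearest copy was Hist1h4m at 96.8%, and for Hist3h2a it was Hist1h2ai at 89.8%. Smallest whole fragment numbers could be read for 49 of the 52 members with a value above 0, and not for Hist1h1e, Hist1h2be and Hist4h4. Of the 49, 21 had at most 3 fragments in every library.

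Members under 1 FPKM in all 4 libraries but above 0 in some were Hist1h1t, Hist1h2ac, Hist1h2ae, Hist1h2af, Hist1h2ag, Hist1h2ah, Hist1h2ak, Hist2h2ab and Hist2h2ac among H1 and H2A genes, Hist1h2bb, Hist1h2be, Hist1h2bf, Hist1h2bh, Hist1h2bl, Hist1h2bm, Hist1h2bn, Hist1h2bp, Hist2h2be and Hist3h2ba among H2B genes, and Hist1h3a, Hist1h3c, Hist1h3e, Hist1h3f, Hist1h3g, Hist1h3h, Hist1h3i, Hist1h4b, Hist1h4c, Hist1h4f and Hist4h4 among H3 and H4 genes. Hist2h2be, an H2B gene whose annotated transcript is 2620 nt long, was level across the libraries with 29, 29, 28 and 26 fragments. Listed at 0 throughout were Hist1h2aa, Hist1h2ad, Hist1h2an, Hist1h2ao, Hist1h2ap, Hist1h2ba, Hist1h2bk, Hist1h2bq, Hist1h2br, Hist1h4j, Hist1h4n, Hist2h2aa1, Hist2h2aa2, Hist2h2bb, Hist2h3b and Hist3h2bb-ps.

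Promoters of 4 leading members are shown because Hist1h1c, Hist1h4h and Hist1h4i were higher together in the library labelled G3 Terc-/- while Hist3h2a hardly differed. They are the 250 bases before the RefSeq start on build GRCm38.p6, 5′ to 3′ in the gene's own direction. Capitals mark the motifs searched on both strands. The TATA box was searched only as the exact run TATAAA. The CCAAT box was searched by its name. The core of the octamer known from H2B promoters was searched as ATTTGCA, and the box known from H1 promoters as AAACACA.
Hist1h1c, chr13:23738557-23738806, plus strand: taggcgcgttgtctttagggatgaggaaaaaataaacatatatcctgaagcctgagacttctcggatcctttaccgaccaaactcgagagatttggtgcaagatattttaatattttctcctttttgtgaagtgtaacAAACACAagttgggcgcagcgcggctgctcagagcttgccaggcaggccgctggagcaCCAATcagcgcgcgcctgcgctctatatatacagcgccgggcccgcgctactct
Hist1h4h, chr13:23530794-23531043, plus strand: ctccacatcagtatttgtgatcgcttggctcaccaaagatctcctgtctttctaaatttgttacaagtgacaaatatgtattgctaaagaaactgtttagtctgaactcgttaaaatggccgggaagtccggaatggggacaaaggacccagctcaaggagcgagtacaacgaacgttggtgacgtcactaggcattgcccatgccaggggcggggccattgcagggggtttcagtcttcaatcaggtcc
Hist1h4i, chr13:22041363-22041612, minus strand: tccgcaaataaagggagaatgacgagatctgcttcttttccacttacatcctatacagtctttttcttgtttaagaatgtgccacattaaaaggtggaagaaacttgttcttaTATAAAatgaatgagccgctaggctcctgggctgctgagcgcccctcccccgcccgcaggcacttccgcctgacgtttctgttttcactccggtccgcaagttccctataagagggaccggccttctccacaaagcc
Hist3h2a, chr11:58954435-58954684, plus strand: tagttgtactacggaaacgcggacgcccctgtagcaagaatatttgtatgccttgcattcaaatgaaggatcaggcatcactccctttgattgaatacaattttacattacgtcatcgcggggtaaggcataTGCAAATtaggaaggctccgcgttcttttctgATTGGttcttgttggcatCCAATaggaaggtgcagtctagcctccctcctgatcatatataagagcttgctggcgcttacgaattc
Hist1h1c held CCAAT from 54 bases and AAACACA from 112 bases before the start. Hist3h2a held CCAAT in either direction and the octamer core in reverse, Hist1h4i held TATAAA from 137 bases before the start, and Hist1h4h held none of the 4 motifs. No motif chosen for H4 promoters was among the 4. The members that were higher together thus did not share one of these exact runs in this window. Runs close to TATAAA were not searched, though the printed windows hold some, as tatata in Hist1h1c and tataag in Hist1h4i and Hist3h2a. A missing match therefore does not show that a TATA box is missing.

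RefSeq gave such a window for 61 of the 68 members. CCAAT was in 50 of them, in all 6 H1, 17 H2A and 16 H2B genes but in 3 of 12 H4 genes, against 33.8% of all 32851 promoters in the table. TATAAA was in 29 of 61 against 12.4% of all promoters. The octamer core was in 14 of 61 against 3.56%, and these were 7 H2A and 7 H2B genes, whose windows can overlap where such genes are neighbours read in opposite directions. AAACACA was in 9 of 61 against 6.25%, among them 5 of 6 H1 genes. Of the 20 members with a window that reached 1 FPKM, 14 held CCAAT and 12 held TATAAA, and of the 41 others 36 and 17. A match is a run of letters only and shows no binding.

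Genes that work around the clustered histones were counted from lists drawn up with earlier results of these data known. Of the list of S-phase genes, 16 of 20 were called lower and 0 higher under the G3 Terc-/- label against wild type, beside 3.52% of all symbols called lower (median -1.67). Ccna2, the S-phase cyclin A2, had 31.5 FPKM in wild type and 4.86 under that label, and the helicase subunit genes Mcm5, Mcm3 and Mcm6 at 23.0 and 3.95, at 31.5 and 5.76 and at 43.2 and 8.72 FPKM. Between the G3 libraries 1 of 20 was called higher under the dKO label, Ccna2 at 12.0 FPKM, at a median of 0.56. Of all symbols 1.12% were called higher there. The part of these differences in the histone values was not tested.

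Of 18 histone chaperones and assembly factors 7 were called lower and 0 higher, beside 3.52% of all symbols called lower, and 17 lay below 0 with Daxx above it, at a median of -0.78 between the library labelled G3 Terc-/- and wild type. In these libraries Asf1b, a chaperone of H3 and H4, had 15.6 and 3.38 FPKM, Chaf1b of the assembly factor CAF-1 at 13.4 and 3.53 FPKM, the chaperone Nasp at 28.9 and 8.37 FPKM, and nucleophosmin, Npm1, at 695 and 293 FPKM. Of 11 genes listed as replication-independent histone variants, 4 were called lower and 0 higher (median -0.46). Cenpa, the centromeric H3, stood at 32.0 and 4.56 FPKM, H2afz, which encodes H2A.Z, at 379 and 90.7 FPKM, H2afx at 48.0 and 19.5 FPKM and H2afy2, a macroH2A gene, at 23.5 and 9.42 FPKM. H1f0, the replacement linker histone, stood at 83.5 and 109 FPKM and was not called. Between the G3 libraries 2 of the 11 variants were called higher under the dKO label and 0 lower, beside 1.12% of all symbols called higher. They were Cenpa at 14.2 FPKM and H2afx at 40.0 FPKM under that label.

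Factors of histone gene transcription and of the formation and decay of histone messenger ends stayed within the size rule, though most lay lower under the G3 Terc-/- label than in wild type. None of 21 was called in any of the 4 comparisons, and the median between the library labelled G3 Terc-/- and wild type was -0.32, with 17 of 21 below 0. Slbp, the stem-loop binding protein, stood at 24.5, 26.1, 15.6 and 18.5 FPKM. With the wild-type value first and that under the G3 Terc-/- label second, Casp8ap2, which encodes the U7 partner FLASH, had 5.88 and 2.61 FPKM, Srrt at 46.6 and 24.5 FPKM, Cpsf2 at 19.7 and 10.7 FPKM and the 3′ end factor Cstf2 at 10.8 and 6.26 FPKM.

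**Figure D5:**
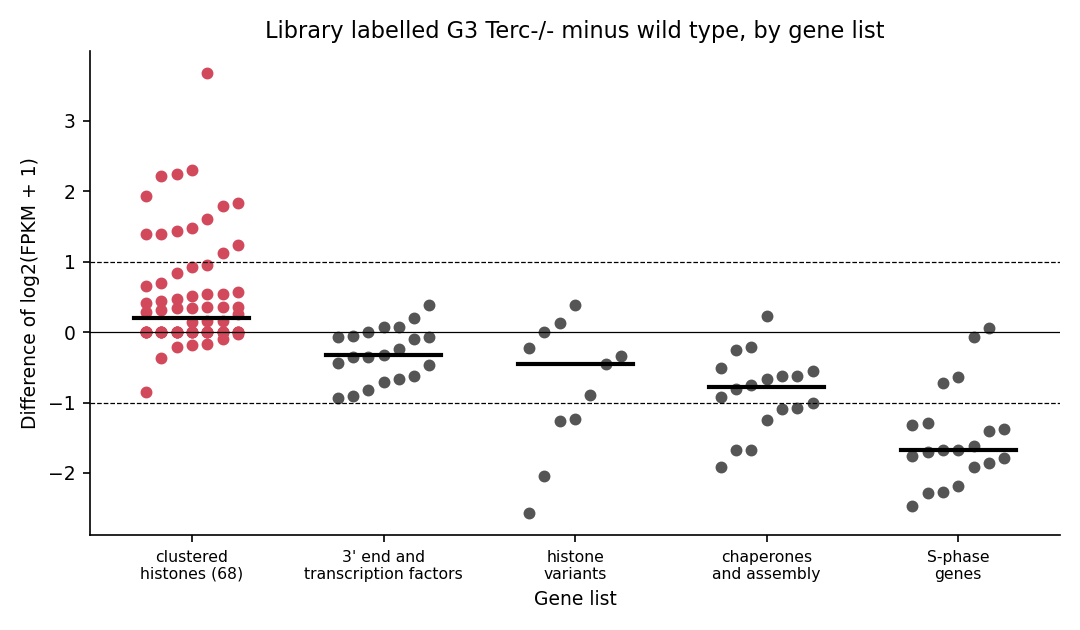
Points are genes, placed by their difference of log2(FPKM + 1) between the library labelled G3 Terc-/- and wild type, for all 68 clustered histone members and 4 lists of related genes, with bars at the medians and dashed lines at 1 and -1. The histone members reach up to 3.68, while 16 of 20 S-phase genes lie at -1 or lower.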

How the data were processed

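The authors deposited 1 table of FPKM per library, with 1 value for each of 23235 gene symbols. Per the submitters' processing notes, build mm9 and the programs Cufflinks 2.2.1 and TopHat2 2.1.1 were used; their roles, the gene models, strand setting and filters are not given in the sources used here. RNA was selected on oligo(dT) and copied from random hexamers, per the labels' protocols.

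The values were used as deposited. Differences of log2(FPKM + 1) were taken for 4 comparisons and called at a size of 1, without a filter. FPKM divides by transcript length, so a fragment is worth more on a short model, between 0.0207 and 0.483 FPKM among members. Values of 49 of the 52 members above 0 lie on whole multiples of this worth. The relative worth of 1 fragment between libraries came from values under 0.1 FPKM, and the smallest whole numbers that give a member's 4 values within 0.01 fragment were taken as its fragments. Multiples of them would give the same values, and a member seen in 1 library only is counted there as 1. Intervals on single ratios are exact conditional binomial ones, and those on sums use the counting variance on the log scale, with the type's median worth for members whose fragments were not read, both at 95%. Depth was estimated from 34 genes with a single GENCODE M21 transcript of 4000 to 8000 nt, with 200 nt taken off. GENCODE M21 (GRCm38) gave hairpins and coding sequences, and RefSeq (GRCm38.p6) gave promoters and gene order, with 67 of 68 members matched. Hist1h2bc, Hist1h2ap, Hist1h3a, Hist1h3f, Hist2h2be, Hist2h4 and Hist3h2bb-ps had no window. No coordinate was set against those of mm9.

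The members and lists were chosen with earlier results of these data known. Values in all libraries are printed for every member that reached 5 FPKM, and companion genes are the up to 4 with the largest difference between the library labelled G3 Terc-/- and wild type, with Slbp, H1f0 and further members named after their values were seen. Fragment recovery and calls were also run on simulated data built by the same rules. That checks the computation only, and not the fragment numbers or calls of these libraries. Python 3.11.15, numpy 2.4.6, pandas 2.3.3, scipy 1.17.1 and matplotlib 3.10.9 were used.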

Additional observations from a re-analysis of the deposited data

Results flagged for a closer look

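Members called in 1 of the Gadd45 comparisons whose difference had the other sign in the other comparison are given here. With 1 library per genotype the difference between the comparisons was not tested. Between the G3 libraries (dKO label minus G3 Terc-/- label) and outside G3 (Gadd45-/- label minus wild type) the differences of log2(FPKM + 1) were -1.17 and 0.24 for Hist1h1c. They were 1.36 and -0.28 for Hist1h2ab, 1.04 and -0.25 for Hist1h2ai, and -0.57 and 1.09 for Hist1h2bj. They were -1.28 and 0.21 for Hist1h3d, -1.09 and 0.38 for Hist1h4a, and -1.79 and 0.76 for Hist2h4. Of these, Hist1h1c rests on 1169 or more fragments in each library, and Hist1h2ai, Hist1h2bj, Hist1h3d, Hist1h4a and Hist2h4 on 13 or fewer.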

How the results depend on the processing

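Of 40 recomputed counts of members called, 22 stayed within 1.5 times the count reported, and of 20 recomputed ratios of summed FPKM 14 stayed within the counting interval. In the order Gadd45-/- label against wild type, G3 Terc-/- label against wild type, dKO label against G3 Terc-/- label and dKO label against Gadd45-/- label, a pseudocount of 0.1 FPKM gave 9, 30, 10 and 29 members higher and 7, 3, 16 and 5 lower. It brings in members of a few fragments. A 1.5-fold size rule gave 3 higher and 2 lower, 1 lower, 5 higher and 12 lower, and 16 higher and 3 lower where the count moved. Between the G3 libraries 1 member was higher among those with a mean FPKM of 1 or more, and 1 without members listed at 0. Without members listed at 0, 0 were higher under the Gadd45-/- label than in wild type. Median-of-ratios scaling left every count as reported and moved 1 ratio past its interval, that of H1 between the G3 libraries, to 0.469. Without the leading member the H4 ratio of the G3 Terc-/- label to wild type was 4.32, and the ratios between the G3 libraries were 0.481 for H1, 2.55 for H2A and 0.627 for H4. The H2B ratio between the G3 libraries turned from 0.780 to 1.10 without Hist1h2bc. No paired analysis was possible because each genotype has 1 library. Depth limits the low members: 21 of 49 with fragments read had at most 3 in every library, and 3 fragments on Hist1h4a are worth over 1 FPKM.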

Other observations

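The worth of 1 fragment gives the effective length over which a member was counted, its model length less about 1 fragment length. For Hist1h4a, Hist1h4b, Hist1h4c, Hist1h4d, Hist1h4f and Hist1h4k it was 111 nt, close to the coding length of 312 nt less 200 nt. GENCODE M21 carries the transcripts of Hist1h4d and Hist1h4c on for 770 and 454 nt past the hairpin. For Hist1h1c the effective length was 1366 nt, for Hist3h2a 1797 nt and for Hist1h2bc 527 nt.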
